A study of Cyanidioschyzon merolae with 29 samples.

Results

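The genes described here are the histone and chromatin genes of *C. merolae*, an acidophilic and thermophilic unicellular red alga. They were chosen by words in the gene descriptions (histone, chromatin, nucleosome, bromodomain, chromodomain, SET domain, SWI/SNF, SNF2, heterochromatin or centromere), and not by any measured value. The rule found 34 nuclear genes among 4984 genes in the count table. They comprise 7 histone protein genes, 4 assembly factors, 4 acetyltransferases or subunits of their complexes, 2 deacetylases, 1 methyltransferase, 9 remodelling proteins, 4 bromodomain or chromodomain proteins, 2 centromere proteins and 1 elongation factor. These roles were set by words in the descriptions, with 1 role per gene, and not by known function. A gene that fits several roles is counted in only 1, such as *CMS256C*, described as similar to GCN5 and counted as a bromodomain protein. All 34 loci were found in the RefSeq annotation of assembly ASM9120v1, which is of strain 10D.

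Strain NIES-3377 was grown under continuous white light in acidic medium without Ni, or with 1 mM or 3 mM Ni added as NiSO4. The 29 libraries form 10 groups of 3, apart from 1 mM Ni on day 15, which has 2. Untreated cultures were sampled on days 0, 5, 10 and 15, and treated cultures on days 5, 10 and 15. There was no Ni-treated sample on day 0, and no group carried a genetic change. RNA was taken from whole cultures, so a gene's value is its share of all counted polyadenylated RNA, and fewer cells of a kind cannot be told apart from less RNA per cell.

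In the eukaryotic nucleus, DNA is wound around octamers of the core histones H2A, H2B, H3 and H4, and the linker histone H1 binds where the DNA enters and leaves. Assembly factors place new histones on DNA, mostly behind replication forks, and remodelling ATPases of the SWI/SNF type slide or evict nucleosomes. Acetyltransferases and deacetylases add and remove acetyl groups on histone tails, and bromodomains are modules that bind acetylated lysine. Histone synthesis and histone deposition are coupled to DNA replication in the eukaryotes in which they have been studied.

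The libraries held 2602444 to 4067107 counts (median 3121668), of which the 34 genes took 0.521% to 0.814%. A total of 32 of them passed the filter on low counts and were among the 4796 genes tested. A pair of untreated libraries stood apart from the others of their group. The root mean square difference in log2 CPM from the nearest library of the same group was 0.956 for C1 on day 15 and 0.712 for C3 on day 5. At 3 mM Ni, 3C lay farther than the others from the rest of its group on each day. On day 10 it was 0.498 from the nearest library while 3A and 3B were 0.183 apart. On day 5 it was 0.460 from the nearest while 3D and 3E were 0.188 apart, and on day 15 these values were 0.350 and 0.190. The median CPM over 32 genes of DNA replication was 19.97 in C1 against 47.5 and 49.2 in the other day 15 controls, and 113 in C3 against 56.1 and 61.6 in the other day 5 controls. In untreated C4 on day 0, which was 0.525 from the nearest library while C1 and C2 were 0.243 apart, it was 36.8 against 51.3 and 51.98.

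Values in the map of fold changes are log2 fold changes from one edgeR fit of all 29 libraries, and a gene was called at a Benjamini-Hochberg adjusted p under 0.05 over all 4796 genes. CPM are each gene's counts scaled to a common library size, after TMM scaling.

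**Figure D1:**
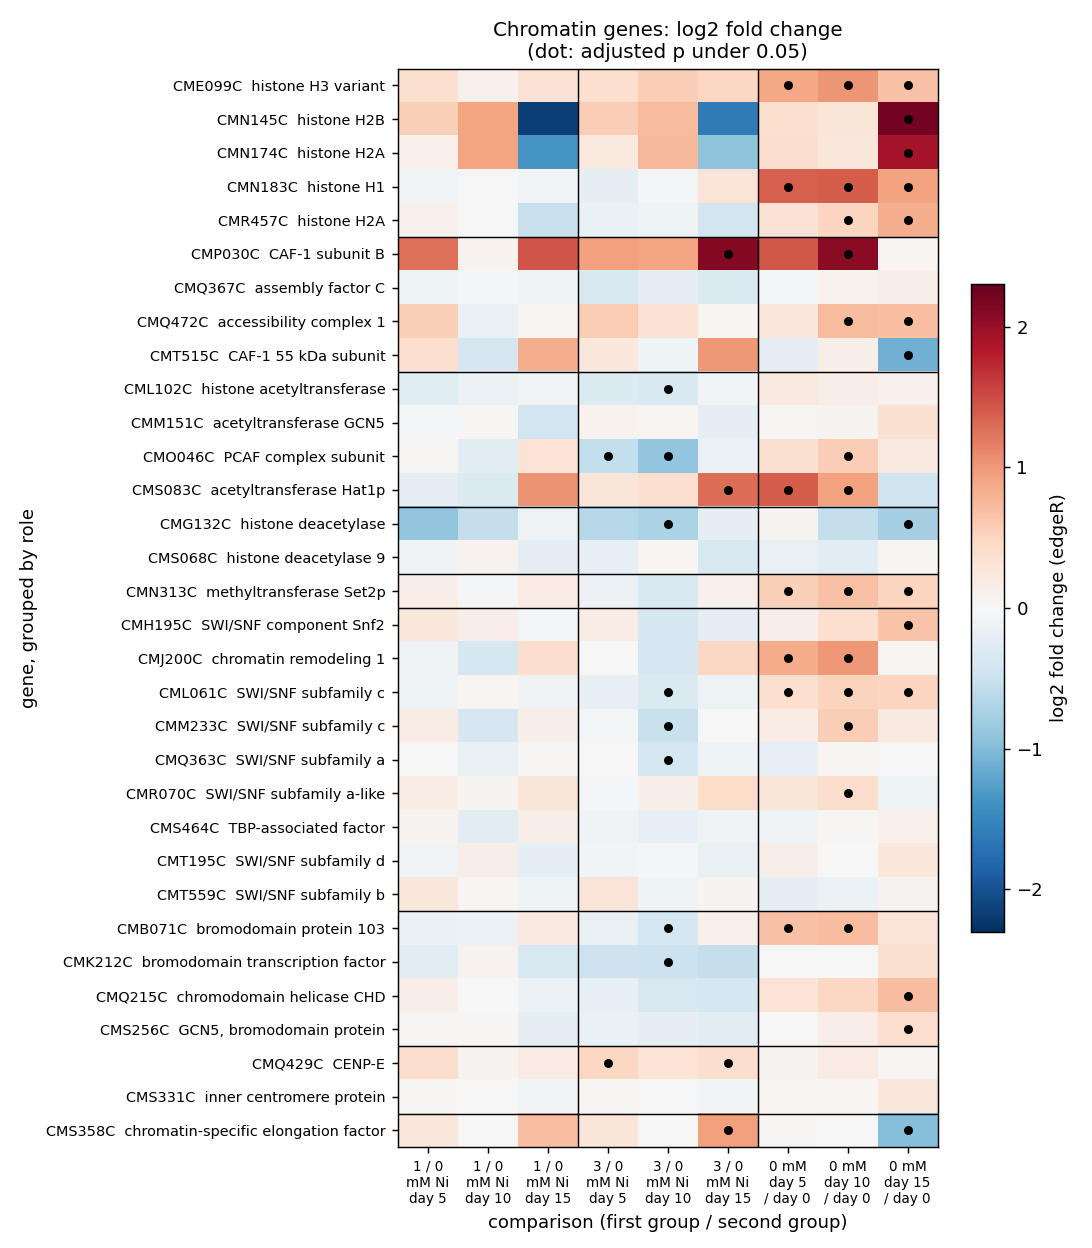
Log2 fold change (colour) of the 32 tested chromatin genes (rows, grouped by role) in 9 comparisons (columns): 1 mM and 3 mM Ni against untreated cultures of the same day, and untreated days against day 0. Black dots mark an adjusted p under 0.05: none in the 1 mM columns, 2, 8 and 4 in the 3 mM columns for days 5, 10 and 15, and 7, 13 and 14 for the untreated days.

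The gene levels differed widely within the set. Per kb of coding length, histone H1 (*CMN183C*) had the highest median level over libraries, 1034 CPM per kb, above 98.4% of tested genes with a known length. The H2A gene *CMR457C* followed with 531 CPM per kb, the histone deacetylase *CMG132C* with 299 and the bromodomain gene *CMK212C* with 268. The lowest tested level was that of the other H2A gene, *CMN174C*, with 14.5 CPM per kb, which is 36.6-fold below *CMR457C* on this scale. The Hat1p-like acetyltransferase *CMS083C* (17.4) and the chromatin assembly factor 1 (CAF-1) subunit *CMP030C* (20.1) were just above it. The median over the 32 genes was 65.8 CPM per kb, against 85.7 over all tested genes with a length.

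The ratio of the highest to the lowest CPM over the 29 libraries had a median of 2.13 in the set and of 2.68 over all tested genes. It was under 2 for 12 of 32 chromatin genes (37.5%) and for 22.7% of all tested genes. It exceeded 10 for 415 of all 4796 tested genes and for 3 of the chromatin genes, *CMP030C* (38.4), the H2B gene *CMN145C* (23.3) and *CMN174C* (14.3). The inner centromere protein gene *CMS331C* had the lowest ratio, 1.43, with 157 CPM in the lowest and 226 CPM in the highest library. In other eukaryotes the inner centromere protein belongs to the complex that corrects chromosome attachment. In the edgeR fit of all libraries, 7 of the 32 tested genes were called in none of the 14 comparisons, against 29.1% of all tested genes: *CMS331C*, the assembly factor gene *CMQ367C*, the GCN5-type acetyltransferase *CMM151C*, the deacetylase *CMS068C*, and the remodelling genes *CMS464C*, *CMT195C* and *CMT559C*. The coordinates of *CMS464C* overlap those of a neighbouring gene, so its counts are uncertain. Of these 7, DESeq2 and limma-voom called *CMQ367C*. *CMS331C* was called on untreated day 15 against day 0 without C1 and without both doubtful untreated libraries (0.38, adjusted p = 0.00843, edgeR). In fits without 1 library *CMT559C*, *CMS068C*, *CMM151C* and *CMT195C* were called in at least 1 comparison, and *CMS464C* in none.

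Of the 7 histone protein genes, 5 lie together on chromosome 14 of ASM9120v1, between bases 415495 and 461911. This interval holds 21 genes of the table. H3 (*CMN165C*) and H4 (*CMN166C*) had 0 counts in all 29 libraries and could not be tested. Of the other genes in the interval, 3 without a description, *CMN169C*, *CMN173C* and *CMN176C*, also had 0 counts in every library. Only 42 of the 4738 nuclear genes of the table were at 0 in all libraries. The coding lengths of genes in the interval recur: *CMN165C* and *CMN176C* are both 411 bp, *CMN166C* and *CMN169C* are both 312 bp, and *CMN173C* and *CMN145C* are both 357 bp. Sequences of these genes were not compared here. Reads aligning to several places are not counted by the counting tool in its default mode, so a listed 0 does not show that a gene was silent. The remaining members in the interval had 13 to 239 counts per library for H2B (*CMN145C*), 9 to 111 for H2A (*CMN174C*) and 521 to 2642 for H1 (*CMN183C*). Values of the low H2A and H2B genes are therefore uncertain.

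**Figure D2:**
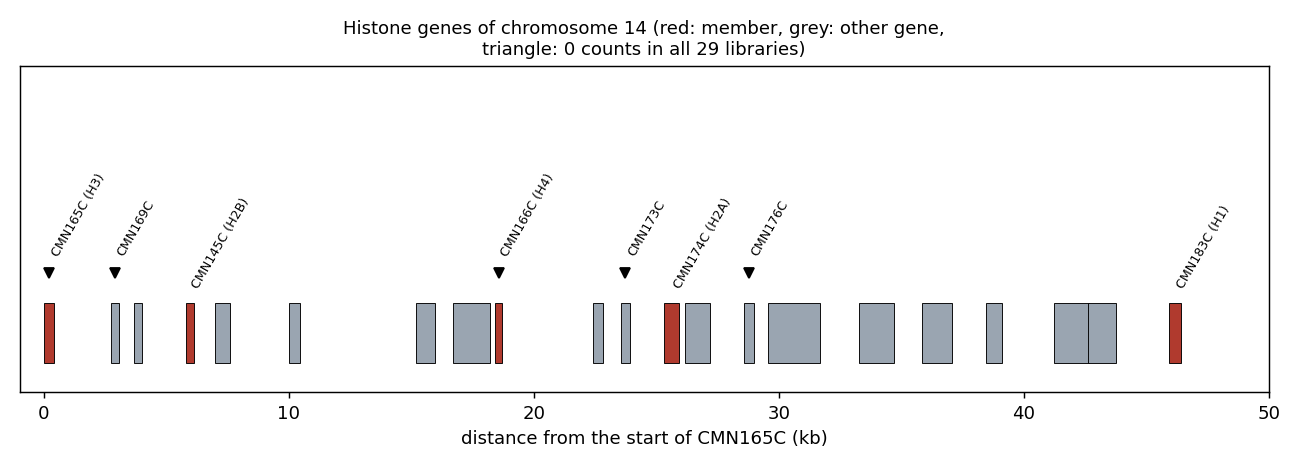
Genes of the histone interval on chromosome 14 as boxes along the distance from the start of *CMN165C* (kb), with chromatin genes in red, other genes in grey, and triangles over genes with 0 counts in all 29 libraries. H3 and H4 and 3 genes without a description are at 0, while H2B, H2A and H1 are not.

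Histone H1 had the smallest adjusted p of the chromatin genes on each untreated day. *CMN183C*, the linker histone, had 196, 206 and 249 CPM on day 0, then 540, 530 and 617 on day 5, and 541, 594 and 581 on day 10. All libraries of days 5 and 10 lay above all of day 0. The log2 fold change was 1.37 ± 0.17 (SE) on day 5 (adjusted p = 8.32e-06) and 1.40 ± 0.17 on day 10 (adjusted p = 4.32e-06) in edgeR. On day 15, with 530, 324 and 390 CPM, it was 0.93 ± 0.17 (adjusted p = 0.000321). These 3 calls held when each library of the groups compared was left out in turn.

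Histone H1 was not called at either Ni dose on any day. At 3 mM Ni it had 430, 481 and 529.8 CPM on day 5, all just below or below the lowest untreated value of 530.2. It had 556, 607 and 514 CPM on day 10, then 446, 549 and 537 CPM on day 15, and both sets overlapped the untreated values. In the edgeR fit of all libraries none of the 5 tested histone protein genes was called in the 9 comparisons between Ni doses. DESeq2 called the H3 variant *CME099C* higher on day 10 (0.59, adjusted p = 0.0459) and the H2B gene *CMN145C* lower on day 15 (-1.68, adjusted p = 0.0396) at 3 mM Ni. In edgeR fits without 1 library, *CMN145C* and the H2A gene *CMR457C* were called on day 15 without C3 or C4, the H2A gene *CMN174C* without C3, and *CME099C* on day 10 without 3C or without C4 of day 0. Without C1 on day 15 and C3 on day 5, H1 on day 15 at 3 mM Ni was called higher, with a log2 fold change of 0.55 (adjusted p = 0.0469, edgeR), and *CME099C* on day 10, with 0.57 (adjusted p = 0.0372).

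The H2A gene *CMR457C* had 138 to 147 CPM on day 0. It reached 194, 217 and 195 CPM by day 10, then 359, 202 and 212 CPM by day 15. Its log2 fold change against day 0 was 0.49 ± 0.17 on day 10 (adjusted p = 0.0218) and 0.84 ± 0.17 on day 15 (adjusted p = 0.000563). It was called in all leave-one-out fits on day 15, with 0.52 without C1 (adjusted p = 0.00411), and in 4 of 6 on day 10, where it was lost without C3 (adjusted p = 0.0743). The H3 variant *CME099C* rose too, from 25.7, 28.9 and 10.99 CPM on day 0 to 52.5, 35.0 and 34.4 on day 5, a log2 fold change of 0.89 ± 0.26 (adjusted p = 0.00906, lost without C4 of day 0 at 0.0557). On day 10 it was 1.02 ± 0.26 (adjusted p = 0.00309) and on day 15 0.67 ± 0.26 (adjusted p = 0.0468, lost without C4 of day 0 at 0.245). In the Ni cultures the H3 variant had 44.8 to 81.5 CPM at 3 mM, and its highest values were 81.5 and 70.8 CPM on day 10.

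The low H2B and H2A genes of chromosome 14 were set on day 15 by 1 library. *CMN145C* (H2B) had 110 CPM in untreated C1 against 6.93 and 12.3 CPM in C3 and C4, and *CMN174C* (H2A) had 51.0 CPM against 5.20 and 12.9. The log2 fold changes against day 0, 2.21 ± 0.65 for *CMN145C* (adjusted p = 0.0105) and 1.91 ± 0.54 for *CMN174C* (adjusted p = 0.00875), were 0.09 and 0.60 without C1 (adjusted p = 0.89 and 0.296). In the other 28 libraries the H2B gene stayed between 4.71 and 32.7 CPM. The same library had the lowest values of *CMP030C*, *CMT515C*, *CMS083C* and *CMS358C*. It also had the fewest counts, 2602444, and the highest share from chloroplast genes, 6.82%, against 2.27% and 3.23% in C3 and C4. The part of these traits in the histone gene values was not tested.

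**Figure D3:**
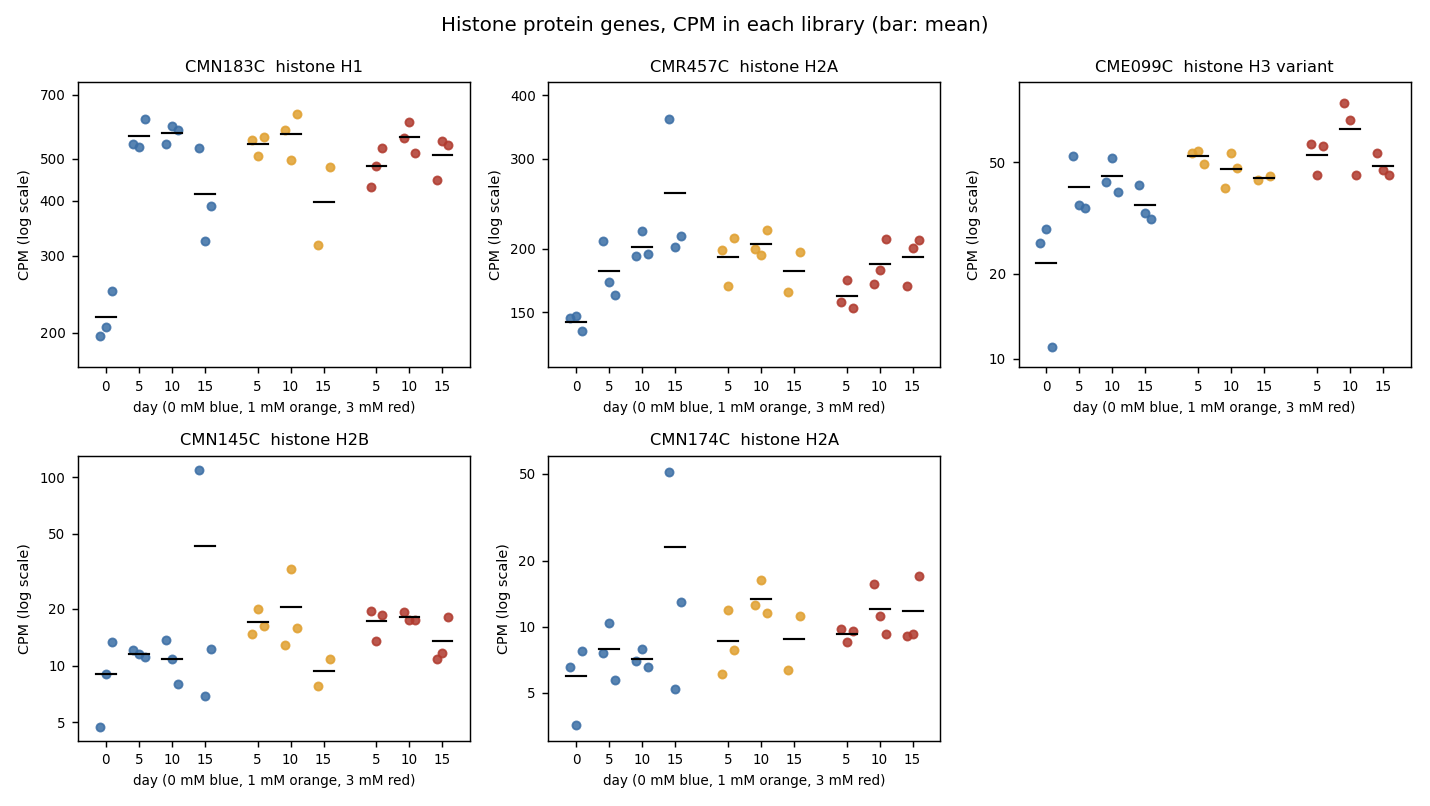
CPM (log axis) of the 5 tested histone protein genes in each library, by day and Ni dose (0 mM blue, 1 mM orange, 3 mM red), with the group mean as a bar. H1 (*CMN183C*) climbs from 196 to 249 CPM on day 0 to over 500 CPM on days 5 and 10, and the H2B and H2A genes of chromosome 14 stand out in 1 untreated day 15 library at 110 and 51.0 CPM.

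In the untreated cultures 7 of 32 chromatin genes were higher on day 5 than on day 0, against 20.3% of all tested genes, and none was lower (19.4%). Day 10 had 13 higher genes (21.1%) and none lower (18.9%), while day 15 had 11 higher (19.5%) and 3 lower (16.6%). On day 10 the share of chromatin genes called higher was 13 of 32, and the median log2 fold change was 0.27, against 0.04 over all tested genes. In these comparisons the 3 control groups share the day 0 libraries. With only the compared groups in the fit, the counts were 3 on day 5 (933 of all tested genes) and 0 on day 15 (307). Without C4 of day 0 they were 6, 10 and 12 on days 5, 10 and 15. Without C3 of day 5 the day 5 count was 5, and without C1 of day 15 the day 15 count was 11 (10 higher, 1 lower). Without both of these they were 8 higher on day 5, 15 higher and 1 lower on day 10, and 10 higher and 2 lower on day 15. That fit called 2584, 2415 and 1745 of all tested genes on days 5, 10 and 15.

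Several remodelling and bromodomain genes took part in these untreated changes. *CMJ200C*, similar to the Arabidopsis remodeller that maintains DNA methylation, had 99.3, 102 and 96.4 CPM on day 0 and 172, 173 and 191 on day 5, a log2 fold change of 0.85 ± 0.24 (adjusted p = 0.00793). On day 10 it was 1.00 ± 0.24 (adjusted p = 0.00231), and both calls held in all leave-one-out fits. The bromodomain protein gene *CMB071C* rose from 233, 240 and 280 CPM to 322, 404 and 473 on day 5 (0.67 ± 0.14, adjusted p = 0.000811) and to 436, 388 and 408 on day 10 (0.71 ± 0.14, adjusted p = 0.000437). The SWI/SNF subfamily c gene *CML061C* had 69.6 to 73.1 CPM on day 0 and was called higher on all 3 days, by 0.36 ± 0.11, 0.51 ± 0.11 and 0.50 ± 0.11 on the log2 scale (SE). The day 5 call was lost without C4 of that day (adjusted p = 0.0635). The catalytic SWI/SNF gene *CMH195C* (Snf2) was called only on day 15, with 324, 292 and 256 CPM against 183, 174 and 194 on day 0 (0.66 ± 0.16, adjusted p = 0.00349), which was not shown to differ from the earlier days.

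At 1 mM Ni no chromatin gene was called on any day. On day 5, 0 of 32 were called with edgeR, against 0.48% of all tested genes, 5 had an unadjusted p under 0.05 (23.5%), DESeq2 called 2 (4.32%) and limma-voom with the culture label as a block 0 (0.25%). On day 10 the counts were 0 (0.146%), 1 unadjusted (8.76%), 0 with DESeq2 (0.667%) and 0 with limma-voom (0.209%). On day 15, with 2 treated libraries, they were 0 (0%), 8 (9.09%), 0 (0.0209%) and 0 (0%). On day 5 the count depended on the untreated library C3: without it 5 chromatin genes were called, and 1425 of all tested genes. Without C1 of day 15 there were 2 (306 of all tested genes). Without both C3 and C1 of day 15 the count was 8 (1957 of all tested genes), so calls rose over all genes too. In the latter fit *CMP030C* was higher (log2 fold change 2.43, adjusted p = 0.000533) and *CMG132C* lower (-1.05, adjusted p = 0.000831) at 1 mM Ni on day 5.

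At 3 mM Ni on day 10, 8 of 32 chromatin genes were called in edgeR and all were lower, against 14.2% of all tested genes called lower. None was higher in this fit, against 15% of all tested genes. DESeq2 called 8 lower (14.7%) and 2 higher (17.4%), *CME099C* and the centromere gene *CMQ429C* (0.34, adjusted p = 0.0101). With DESeq2's size factors in edgeR the count was 6 lower and 1 higher. The 8 comprise 2 acetyltransferase genes, 1 of 2 deacetylases, 3 of 9 remodelling genes and 2 of 4 bromodomain or chromodomain genes. The set's median log2 fold change was -0.11, against -0.02 over all tested genes.

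The largest of these was in *CMO046C*, a subunit of the PCAF acetylase complex and the longest gene of the set. It had 896, 729 and 1007 CPM untreated and 415, 403 and 586 at 3 mM Ni, with no overlap. The log2 fold change was -0.91 ± 0.19 (adjusted p = 0.00141), and it stayed called in all 6 leave-one-out fits (adjusted p at most 0.0161) and in all 8 other settings. On day 5 it was already lower, with 925, 628 and 719 CPM untreated and 526, 492 and 510 at 3 mM Ni (-0.57 ± 0.18, adjusted p = 0.0488). The day 5 call held in 1 of 6 leave-one-out fits and in 4 of 8 other settings, and was lost, for example, without 3D (adjusted p = 0.126). On day 10 it was also lower than at 1 mM Ni, at 738, 668 and 800 CPM (-0.65 ± 0.18, adjusted p = 0.0328, lost without 3B at 0.198). This gene is one that the study lists on these samples, so the count holding it is not independent evidence.

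*CMM233C*, one of a pair of SWI/SNF subfamily c genes of equal coding length (3168 bp), had 106, 92.7 and 98.0 CPM untreated and 65.5, 72.5 and 69.6 at 3 mM Ni on day 10. The groups did not overlap, and the log2 fold change was -0.51 ± 0.14 (adjusted p = 0.00967). It was called in all 6 leave-one-out fits, with the weakest at 0.0498 without 3A. Its partner *CML061C* had 98.1, 99.5 and 107 CPM against 73.5, 81.2 and 87.0 (-0.33 ± 0.11, adjusted p = 0.0257, lost without 3A at 0.13). Reads that the pair might share were not examined.

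The other 5 lower genes had fold changes between -0.35 and -0.72. The deacetylase *CMG132C* had 422, 415 and 493 CPM untreated and 213, 200 and 393 at 3 mM Ni (-0.72 ± 0.27, adjusted p = 0.0479), and the third treated library, 3C, lay well above the others. *CMK212C*, a bromodomain gene, had 759, 705 and 651 CPM against 454, 438 and 608 (-0.50 ± 0.19, adjusted p = 0.0465). The bromodomain gene *CMB071C* had 436, 388 and 408 CPM against 306, 299 and 322 (-0.41 ± 0.14, adjusted p = 0.031). *CMQ363C*, a SWI/SNF subfamily a gene, had 708, 708 and 764 CPM against 513, 498 and 636 (-0.40 ± 0.12, adjusted p = 0.0161). The histone acetyltransferase *CML102C*, another gene the study lists, had 223, 219 and 214 CPM against 167, 151 and 197 (-0.35 ± 0.11, adjusted p = 0.0171). In all 5 the 3C value was the highest treated one and the groups still did not overlap. Of 6 leave-one-out fits, *CMG132C* and *CMK212C* were called in 1, *CMB071C* in 2, and *CMQ363C* and *CML102C* in 3. *CMG132C* was also below all untreated libraries at 1 mM Ni on day 10, with 288 to 326 CPM. On day 5 it had 337 to 393 CPM at 1 mM and 311 to 500 at 3 mM, against 537 to 825 untreated. These 3 changes were not called in the edgeR fit of all libraries. DESeq2 called the one at 1 mM Ni on day 5 (-0.89, adjusted p = 0.0359). On day 15 its treated and untreated values overlapped.

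**Figure D4:**
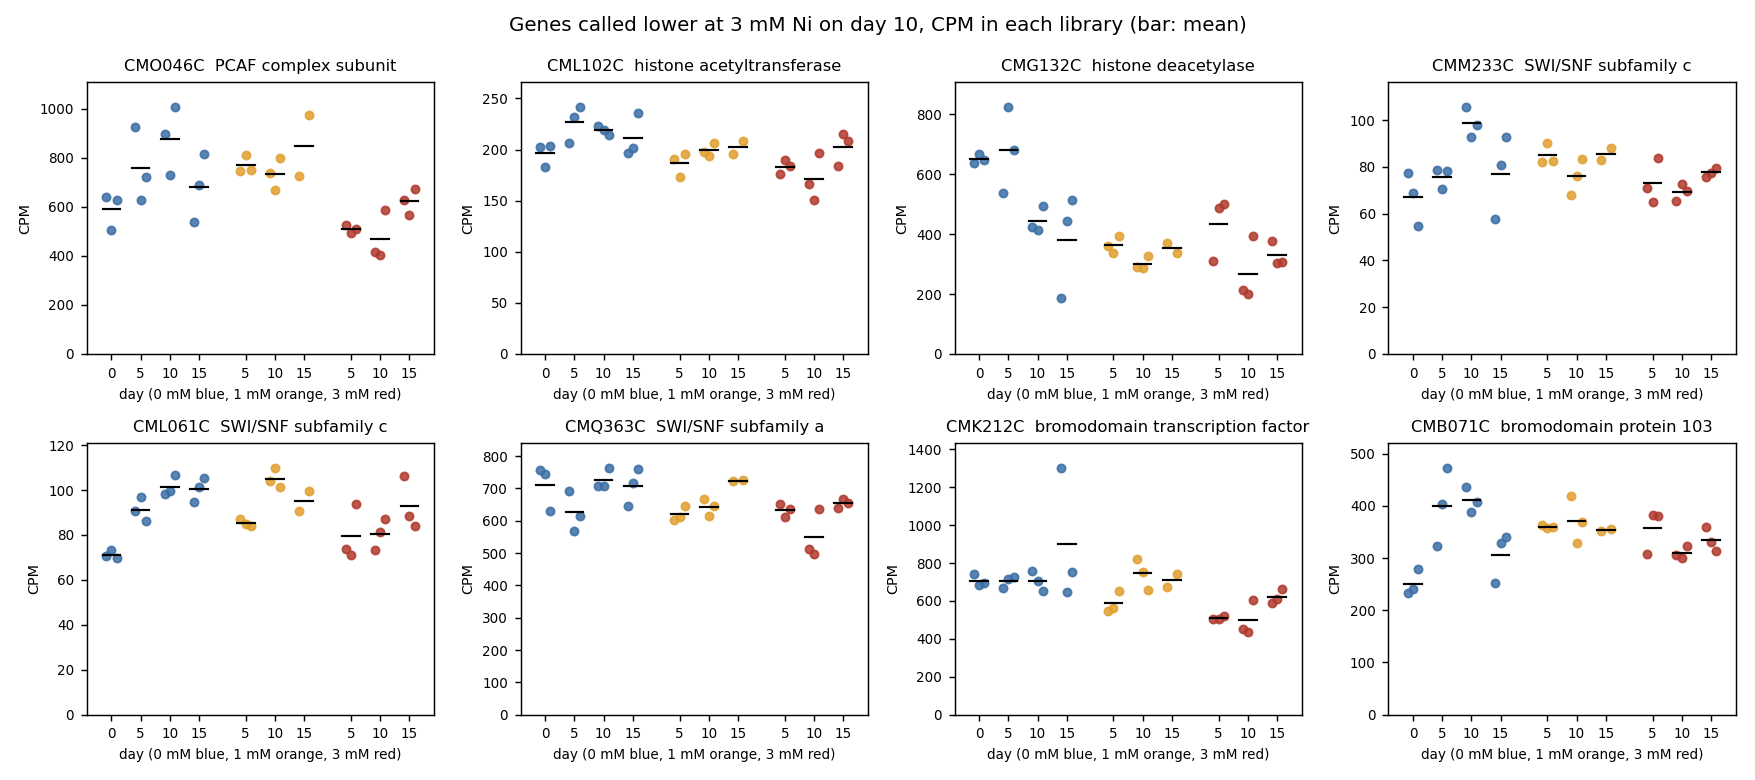
CPM (linear axis from 0) of the 8 genes called lower at 3 mM Ni on day 10 in each library, by day and Ni dose (0 mM blue, 1 mM orange, 3 mM red), with the group mean as a bar. In the day 10 columns the 3 red points lie below the 3 blue points in every panel, for example 415, 403 and 586 CPM against 729 to 1007 CPM for *CMO046C*.

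The day 10 count rested on the treated libraries 3A and 3B: without either it was 2, and without untreated C1 or C5 it was 3. Over all tested genes 1402 were called in the full fit. Without 3A, 3B, C1 and C5 there were 727, 642, 983 and 887. Without 3C the chromatin count was 11. Without C1 of day 15 and C3 of day 5 it was 13 (10 lower, 3 higher), with 2005 of all tested genes called. With 3C left out as well it was 17 (14 lower, 3 higher), with 2279 of all tested genes called. Calls thus rose over all genes too. With only the compared groups in the fit it was 3 (1513 of all tested genes).

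Against 1 mM Ni, 3 of 32 chromatin genes were lower at 3 mM Ni on day 10 (3.54% of all tested genes were lower) and none was higher (5%). They were *CMO046C*, the Snf2 gene *CMH195C* (297, 260 and 237 CPM at 1 mM, 176, 170 and 201 at 3 mM, -0.54 ± 0.16, adjusted p = 0.044) and *CML061C* (104, 110 and 101 CPM at 1 mM, -0.38 ± 0.11, adjusted p = 0.0344). The count was 0 without 1A, 1B, 1D, 3A or 3B, 7 without 3C, 5 without the 2 doubtful untreated libraries and 14 with 3C left out too. Over all tested genes 410 were called in the full fit and 876 without 3C. Without the 2 doubtful untreated libraries there were 1117, and with 3C left out too 1634. On day 5 no chromatin gene differed between doses in edgeR (0.0834% of all tested genes), 2 had an unadjusted p under 0.05 (13.1%), DESeq2 called 1 (1.58%) and limma-voom 0 (0.209%). On day 15 the counts were 0 (0%), 1 unadjusted (4.44%), 0 with DESeq2 (0.0626%) and 0 with limma-voom (0.0417%).

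At 3 mM Ni on day 15 the 4 genes called in edgeR were all higher, against 5.71% of all tested genes, and none was lower (4.59%). They were *CMP030C*, *CMS083C*, *CMS358C* and *CMQ429C*. CAF-1, to which *CMP030C* belongs, deposits H3 and H4 behind replication forks, and Hat1p acetylates newly made H4 in yeast. *CMP030C* had 1.84, 5.20 and 13.8 CPM untreated and 14.6, 39.5 and 40.7 at 3 mM Ni (2.11 ± 0.56, adjusted p = 0.021). *CMS083C* had 6.89, 12.4 and 8.92 CPM against 17.3, 25.3 and 27.5 (1.28 ± 0.35, adjusted p = 0.0236). *CMS358C*, a chromatin-specific transcription elongation factor, had 109, 161 and 218 CPM against 262, 355 and 325 (0.94 ± 0.23, adjusted p = 0.0169). In each of these the 2 groups did not overlap, and the lowest untreated value was that of C1.

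The day 15 count was decided by single libraries. Without untreated C1 it was 0, with adjusted p = 0.0955 for *CMP030C* (log2 fold change 1.73), 0.105 for *CMS083C* (1.12) and 0.0867 for *CMS358C* (0.73). It was also 0 without 3D or 3E, 10 without C3 (5 higher, 5 lower) and 9 without C4 (6 higher, 3 lower). Over all tested genes 494 were called in the full fit and 146 without C1. Without 3D, 3E, C3 and C4 there were 57, 114, 843 and 708. Without both C1 and C3 of day 5, *CMP030C* was called again (1.76, adjusted p = 0.0224). The chromatin count was then 3, with 303 of all tested genes called. With only the compared groups in the fit it was 0, with the block it was 2 (4.11% of all tested genes were higher). DESeq2 called 8, of which 5 were higher (7.05%) and 3 lower (7.49%), so the calls of this day were not all higher in every fit.

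The 32 genes of DNA replication were counted in the same comparisons. On day 15 at 3 mM Ni, 17 of 32 were called higher (5.71% of all tested genes) and none lower (4.59%). Their median log2 fold change was 1.21, against -0.04 over all tested genes. Without untreated C1, 4 were called higher and none lower, with a median of 0.96, while 146 of all tested genes were called. Without C3 of day 5 as well, 15 were called higher, with a median of 0.99, while 303 of all tested genes were called. The median CPM of the replication genes ran from 19.97 to 49.2 in the untreated and from 70.3 to 131 in the 3 mM libraries of that day, with the lowest in C1. On day 5 they had 4 called higher (5.42% of all tested genes) and 1 lower (4.77%) at 3 mM Ni. Without untreated C3 this became 18 and 1, while 1157 of all tested genes were called. On day 10 they had 3 higher (15%) and 2 lower (14.2%). Without both doubtful untreated libraries this became 9 and 2, while 2005 of all tested genes were called. At 1 mM Ni 1 was higher on day 5, against 20 of all tested genes, and none was called on days 10 and 15. Whether chromatin genes moved with the replication genes, and the part of replication in the chromatin gene values, was not tested.

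CAF-1 also varied within the untreated cultures. *CMP030C* had 7.97, 7.51 and 5.70 CPM on day 0. It had 40.0, 7.83 and 9.31 CPM by day 5, then 21.7, 38.0 and 30.4 CPM by day 10. The day 5 value of 40.0 was that of C3, which also had the highest replication gene median of its group. *CMS083C* had its lowest untreated day 5 value, 28.99 CPM, in C3. The day 10 rise over day 0 was 2.07 ± 0.57 (adjusted p = 0.00581, called in all leave-one-out fits). Without the 2 doubtful untreated libraries, *CMP030C* was higher at 3 mM Ni on day 5 (2.12, adjusted p = 0.00173). *CMS083C* rose from 11.8 to 15.2 CPM on day 0 to 28.99, 33.9 and 40.1 on day 5 (1.39 ± 0.34, adjusted p = 0.00257, called in all leave-one-out fits), and to 13.97, 41.5 and 19.6 on day 10 (0.92 ± 0.34, adjusted p = 0.0334), a value lost without C3 of day 10 (0.35, adjusted p = 0.419).

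The CAF-1 55 kDa subunit *CMT515C* had 110, 120 and 121 CPM on day 0 and fell on day 15 to 17.9, 70.2 and 71.0 (-1.11 ± 0.34, adjusted p = 0.0133), lost without C1 (-0.73, adjusted p = 0.056) and called without C3 of day 5 as well (adjusted p = 0.0404). At 3 mM Ni on day 15 it had 75.3, 122 and 127 CPM, all above the untreated values of that day, but was not called in edgeR (1.00 ± 0.34, adjusted p = 0.0588). It was called higher there by DESeq2 (1.01, adjusted p = 0.0283) and in edgeR without C3 or C4 of day 15. *CMS358C* fell likewise on day 15 (-0.97 ± 0.23, adjusted p = 0.0028, and -0.76 without C1, adjusted p = 0.0186). The deacetylase *CMG132C* fell from 637, 666 and 648 CPM to 188, 444 and 514 on day 15 (-0.77 ± 0.27, adjusted p = 0.0309), lost without C1 (-0.44, adjusted p = 0.155). The accessibility complex gene *CMQ472C*, which the study lists, rose from 11.9 to 16.7 CPM on day 0 to 21.1 to 25.5 on day 15 (0.68 ± 0.20, adjusted p = 0.00961). By day 10 it had already reached 23.5, 21.2 and 25.3 CPM (0.72 ± 0.19, adjusted p = 0.00542). At 3 mM Ni on day 5 *CMQ472C* had 26.4, 27.1 and 23.0 CPM against 17.9, 14.9 and 17.9 untreated, with no overlap, and was not called in edgeR (0.59 ± 0.19, adjusted p = 0.0502). DESeq2 called it (0.60, adjusted p = 0.0387), as did edgeR without the doubtful untreated libraries (0.64, adjusted p = 0.0263). *CMQ367C*, an assembly factor gene that the study also lists, had 143 to 158 CPM at 3 mM Ni on day 5 against 190 to 195 untreated, with no overlap, and was called in no comparison in the edgeR fit of all libraries (log2 fold change -0.35). It was called lower there by DESeq2 (-0.34, adjusted p = 0.0272), by limma-voom (-0.35, adjusted p = 0.0406) and by edgeR without the doubtful untreated libraries (-0.34, adjusted p = 0.0322). DESeq2 also called it lower on day 15 (-0.34, adjusted p = 0.0251).

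**Figure D5:**
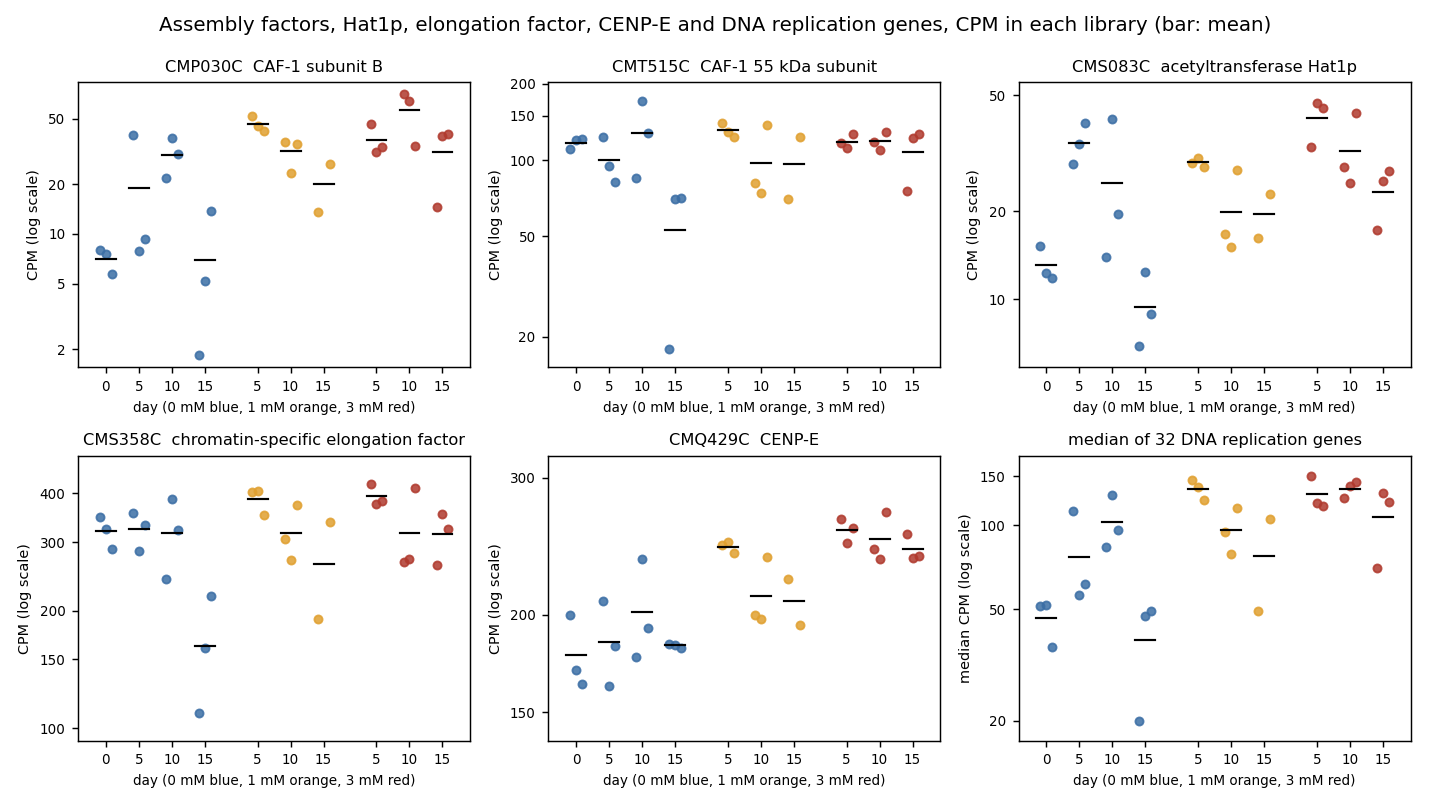
CPM (log axis) in each library of *CMP030C*, *CMT515C*, *CMS083C*, *CMS358C* and *CMQ429C*, and the median CPM of 32 DNA replication genes, by day and Ni dose (0 mM blue, 1 mM orange, 3 mM red), with the group mean as a bar. One untreated day 15 library lies lowest in 5 of the 6 panels, with 1.84 CPM for *CMP030C* and a replication median of 19.97.

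The centromere gene *CMQ429C* encodes CENP-E, in other eukaryotes a kinesin that links kinetochores to spindle microtubules. It had 208, 162 and 183 CPM untreated and 265, 247 and 258 at 3 mM Ni on day 5, with no overlap (0.48 ± 0.12, adjusted p = 0.0134). On day 15 it had 184, 183 and 181 CPM against 254, 236 and 238 (0.41 ± 0.12, adjusted p = 0.0327), again with no overlap. On day 10 it had 176, 236 and 193 CPM against 243, 236 and 271, and was not called (0.31, adjusted p = 0.053). These calls held in 3 of 6 leave-one-out fits on day 5 and 2 of 6 on day 15, and were lost, for example, without C4 of day 5 (adjusted p = 0.0881) and without 3D of day 15 (adjusted p = 0.093). The study lists this gene too. Without the doubtful untreated libraries it was called on all 3 days at 3 mM Ni. At 1 mM Ni on day 5 it had 240 to 248 CPM, again all above the untreated values. It was not called there in the edgeR fit of all libraries. DESeq2 called it there (0.42, adjusted p = 0.0154), as did edgeR without the doubtful untreated libraries (0.51, adjusted p = 0.00242). At 1 mM Ni it had 198 to 238 CPM on day 10, overlapping the untreated values, and 194 and 222 CPM on day 15.

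On day 5 at 3 mM Ni the count was 2 of 32, with *CMQ429C* the 1 higher (5.42% of all tested genes were higher) and *CMO046C* the 1 lower (4.77%). It was 0 without 3C or C5 of day 5, 5 without 3C of day 10, 6 without C3 of day 5, 7 without C1 of day 15, and 1 in 12 other leave-one-out fits. Without both doubtful untreated libraries it was 7 (3 higher, 4 lower). Over all tested genes 489 were called in the full fit, 573 without 3C of day 10 and 1157 without C3 of day 5. Without C1 of day 15 there were 814, and without both doubtful libraries 1595. DESeq2 called 2 higher (7.28%) and 3 lower (6.19%).

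The change in the 3 mM Ni response between days was tested as a difference of differences. From day 5 to day 10 no chromatin gene was called in edgeR (0% of all tested genes), 3 had an unadjusted p under 0.05 (5.3%), and DESeq2 (0.0834%) and limma-voom (0%) called 0. From day 10 to day 15 the counts were 0 (0%), 9 unadjusted (22.1%), 0 with DESeq2 (3.5%) and 0 with limma-voom (0%). Without 3C of day 10 there were 2 (460 of all tested genes). Without C3 of day 15 there was 1 (80), and without C4 of day 15 there were 4 (279). Calls on one day and not on another are therefore not shown to differ between days.

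A further 25 chromatin genes are described in other words, such as topoisomerases, sirtuins and the FACT subunit SSRP1, and 1 of them, an HMG-CoA synthase, matched only by its letters. Of the 24 tested, 2 were higher and 7 lower at 3 mM Ni on day 10, against 15% and 14.2% of all tested genes. Day 5 had 0 higher (5.42%) and 2 lower (4.77%), and day 15 had 4 higher (5.71%) and 4 lower (4.59%). Without untreated C1, day 15 had 0 higher and 1 lower, with 146 of all tested genes called. At 1 mM Ni, 1 was higher on day 10, against 6 of all tested genes. The list's median log2 fold change at 3 mM Ni on day 10 was -0.30, against -0.02 over all tested genes. The comparisons of 1 mM and 3 mM Ni on a given day share the untreated libraries.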

How the data were processed

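RNA of *C. merolae* cultures was sequenced in 29 libraries after poly(A) selection, as 3 biological replicates a group, 2 at 1 mM Ni on day 15. The authors trimmed reads with Trimmomatic 0.39, aligned them to ASM9120v1 with Hisat2, took out optical duplicates (GATK MarkDuplicates), counted them by strand with HTSeq, and deposited raw counts per gene, not normalized. The submitters' processing notes give HTSeq 0.9.1. HTSeq's default skips multiply aligned reads, so near-identical genes can be undercounted. All 29 libraries were mapped by their labels, and 0 count columns were left unmapped.

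The counts were fitted here in 1 model of all groups with edgeR 4.0.16 (R 4.3.3; TMM, filterByExpr, quasi-likelihood test), two-sided, with Benjamini-Hochberg adjustment over 4796 genes. Errors are SE. P-values weigh each difference between groups against the spread between replicate libraries, which was estimated over all groups with information shared across genes. They cover only the spread between these samples. Alternatives were DESeq2 1.42.0, limma 3.58.1 with voom, other scalings and filters, nuclear genes alone, only the compared groups, and leaving out each library. Leaving out the libraries that stood apart was chosen after seeing the data. The statistics were tested on simulated data. No replicate pair differed by less than sampling noise.

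Genes named with values were every histone or centromere protein, the called members with the largest changes in each comparison (up to 6 for Ni, 4 for untreated days and 3 between doses) and those the study lists by locus. Others were named after their values were seen. The members and lists were chosen with earlier results of these data known. Lengths, coordinates and neighbouring genes are from RefSeq. Sequences were not used here.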

Additional observations from a re-analysis of the deposited data

Results flagged for a closer look

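The SWI/SNF subfamily c gene *CMM233C* moved in opposite directions at 1 mM Ni on 2 days. On day 5 all 3 treated libraries (82.2, 90.0 and 82.5 CPM) lay above all untreated ones (78.7, 70.5 and 78.0 CPM), a log2 fold change of 0.16. On day 10 all 3 treated libraries (68.1, 76.0 and 83.4 CPM) lay below all untreated ones (106, 92.7 and 98.0 CPM), a log2 fold change of -0.38. Neither change was called, and the difference between the days was not tested.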

How the results depend on the processing

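Of 45 calls of named genes recomputed in 1665 values, 1454 kept direction and call, 211 kept direction and lost the call, and 0 changed direction. Of these values 1305 came from leaving out 1 library, mostly one outside the groups compared. Only 6 fits per call left out a library of those groups. In these 6, the day 10 calls of *CMO046C* and *CMM233C* against untreated cultures always held. Each other call between Ni doses held in only 1 to 3. The number of chromatin genes called moved by over 1.5 times as follows, and the cause was not tested. With DESeq2 it was 2 for 1 mM Ni on day 5, 5 and 8 for 3 mM Ni on days 5 and 15, and 1 for 3 against 1 mM on day 5. With no filter beyond 1 count it was 1 for 3 mM Ni on day 5. With only the compared groups it was 0, 3 and 0 for 3 mM Ni on days 5, 10 and 15, 1 for 3 against 1 mM on day 5, and 3 and 0 for untreated days 5 and 15. Without C3 of day 5 and C1 of day 15, untreated, it was 8 for 1 mM Ni on day 5, 7 and 13 for 3 mM Ni on days 5 and 10, and 1 and 5 for 3 against 1 mM on days 5 and 10. In the same order that fit called 1957, 1595, 2005, 265 and 1117 of all tested genes. With 3C of day 10 out as well, it was 10 and 1 for 1 mM Ni on days 5 and 10, 10 and 17 for 3 mM Ni on days 5 and 10, 1 and 14 for 3 against 1 mM on days 5 and 10, and 3 and 2 for the changes of the 3 mM response from day 5 to 10 and from day 10 to 15. This last fit called 2098, 246, 1793, 2279, 370, 1634, 277 and 794 of all tested genes in that order.

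Leaving out 1 library gave 0 to 5 for 1 mM Ni on day 5, 0 to 7, 2 to 11 and 0 to 10 for 3 mM Ni on days 5, 10 and 15, 0 to 7 for 3 against 1 mM on day 10, and 0 to 4 for the change from day 10 to 15. Over all tested genes these ranges were 6 to 1425, 179 to 1157, 642 to 1752, 57 to 843, 5 to 876 and 0 to 460. With the culture label as a replicate block (limma-voom) 2 genes were called at 3 mM Ni on day 15 in place of 4. The block moved no other count by over 1.5 times. Over 18 pairs of days with the same label the correlation of deviations ran from -0.50 to 0.24, so the label was not taken as a pairing. Whether it marks 1 culture sampled over time is not given in the sources used here, and no label occurs in both Ni and untreated cultures. Low counts limit the precision of several genes. The lowest in a library was 4 in *CMP030C*, 9 in *CMN174C*, 13 in *CMN145C* and 15 in *CMS083C*. It was 27 in *CME099C*, 30 in *CMQ472C* and 39 in *CMT515C*.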
